A study of Mus musculus with 18 samples.

Results

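Of 18 mouse mammary tumors, 13 kept a high level of Epcam, the gene of an epithelial cell adhesion molecule, and 10 of these 13 were compared here. The 5 with the highest level of Ptprc are called leukocyte-rich and the 5 with the lowest are called leukocyte-poor. Ptprc encodes CD45, a phosphatase on the surface of all nucleated blood cells. A tumor was taken as epithelial where Epcam reached 180 CPM, its expected counts in each 1000000 of the tumor's total. The 3 epithelial tumors with middle Ptprc were left out of the comparison, and so were the 5 tumors under the Epcam limit. The groups were thus selected on measured Ptprc and Epcam: these genes get no test, and the p-value of any other gene says how it went with the Ptprc order, not how 2 labelled conditions differ.

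RNA came from spontaneous tumors, each of its own mouse, and no animal was treated. The genotype labels give every mouse the MMTV-Cre transgene and a heterozygous Pik3ca allele with the H1047R change, written "Pikca" there. The MMTV promoter drives Cre in mammary epithelium and in some other cells. Since all the tumors carried these alleles, none is a normal gland or a tumor without the oncogene. The leukocyte-rich group held 4 Cbfb(het) tumors and the Cbfb(homo) tumor, and the leukocyte-poor group held 4 Cbfb(het) tumors and 1 Cbfb(wt) tumor, so Cbfb genotype was not the same in both groups. Cbfb encodes a partner protein of the RUNX factors, and the labels do not say how the allele was altered. Tumors are named by genotype and a number that carries no order.

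Leukocytes in a mammary tumor are a mixture. Macrophages take up dying cells, present antigen and remodel matrix, and they depend on the receptor Csf1r. T and natural killer cells kill or help, B and plasma cells make antibody, neutrophils and mast cells release stored granules, and dendritic cells carry antigen to T cells. The CD45 gene does not tell these apart, so markers of each lineage are needed.

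Ptprc stood at 86.2, 71.6, 59.2, 56.9 and 50.6 CPM in the leukocyte-rich tumors Cbfb(het) 13, Cbfb(het) 5, Cbfb(homo) 1, Cbfb(het) 11 and Cbfb(het) 3. It stood at 34.3, 32.5, 28.9, 27.2 and 18.2 CPM in the leukocyte-poor tumors Cbfb(het) 2, Cbfb(wt) 1, Cbfb(het) 4, Cbfb(het) 7 and Cbfb(het) 8. The middle tumors Cbfb(het) 9, Cbfb(wt) 3 and Cbfb(het) 6 had 45.4, 45.1 and 36.5 CPM, so the nearest tumors outside the groups lay close to both limits. Epcam ran from 344 to 750 CPM in the rich and from 504 to 648 CPM in the poor tumors, and the groups overlapped. The highest Epcam among the 5 tumors under the limit was 120 CPM. Their Ptprc ran from 38.7 to 132 CPM.

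**Figure D1:**
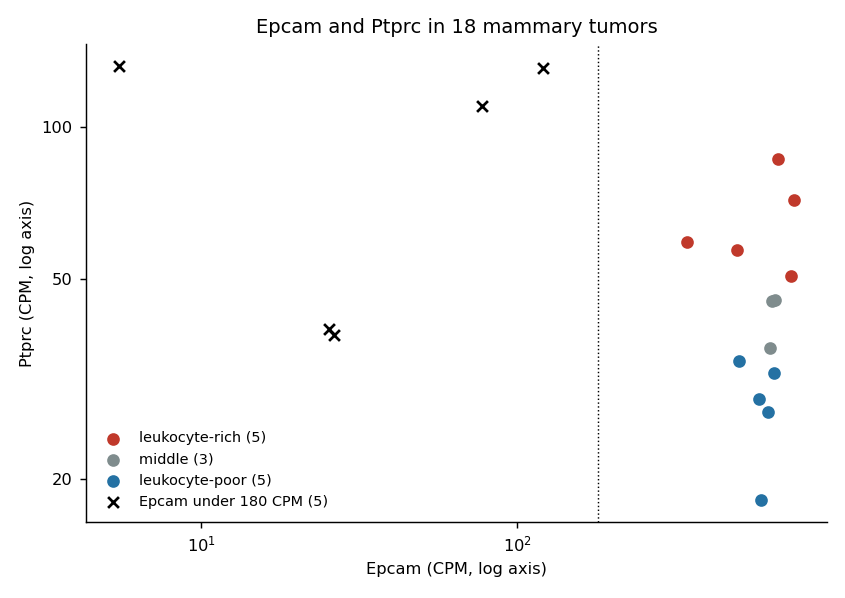
Epcam (x axis) and Ptprc (y axis) in each of 18 tumors, in CPM on log axes, with the 180 CPM Epcam limit as a dotted line and groups by colour. The 5 rich tumors lie at 50.6 CPM of Ptprc or above, the 5 poor tumors at 34.3 or below, and their Epcam ranges overlap.

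Leukocyte genes such as Cd53, Itgb2 and Csf1r were among those with the smallest p, but no gene passed the adjusted threshold. Of 16704 genes tested besides Ptprc and Epcam, 0% passed an adjusted p of 0.05 in either direction (edgeR's quasi-likelihood test with Benjamini-Hochberg adjustment, smallest adjusted p = 0.168). At an unadjusted p under 0.05, 7.62% stood higher and 3.36% lower in the rich tumors (1273 and 561 genes). The 5 rich and 5 poor values did not overlap in 1.34% of genes in the higher direction and 0.551% in the lower direction (223 and 92 genes). DESeq2, run on the same counts, called 390 genes higher and 79 lower. Counts per list given below are to be read beside these shares and totals over all genes. Without normalization factors the split of genes without overlap was 438 higher to 7 lower, against 223 to 92, on the deposited TPM it was 555 to 4, and the median log2 fold change over all genes moved from -0.02 to 0.18 without those factors. All 30 genes with the smallest p stood higher in the rich tumors, without overlap; 3 were on the pan-leukocyte list, 2 on the macrophage list and 0 on the T cell list. Totals were 36736418 to 40974130 rounded expected counts per tumor in both groups.

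Other genes shared by leukocytes stood higher together. Levels from here on are normalized CPM, that is CPM of rounded expected counts after TMM scaling over the 13 epithelial tumors; on this scale Ptprc of the poor tumor Cbfb(het) 2, at 38.5, lay above the middle tumor Cbfb(het) 6, at 36.8. Cd53, a membrane protein of the tetraspanin family on leukocytes, was 47.3, 39.5, 41.1, 40.2 and 51.0 in Cbfb(het) 13, Cbfb(het) 5, Cbfb(homo) 1, Cbfb(het) 11 and Cbfb(het) 3. In the poor tumors Cbfb(het) 2, Cbfb(wt) 1, Cbfb(het) 4, Cbfb(het) 7 and Cbfb(het) 8 it was 26.6, 21.0, 22.8, 19.6 and 24.7. The lowest rich tumor lay well above the highest poor tumor, at a log2 fold change of 0.93 ± 0.13 (SE, n = 5 tumors per group, adjusted p = 0.168 by edgeR). Tumors are listed in these 2 orders throughout.

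Itgb2, the beta chain of leukocyte integrins, was 78.9, 69.5, 57.3, 60.5 and 72.2 in the rich and 38.7, 28.0, 37.6, 33.2 and 36.3 in the poor tumors, a log2 fold change of 0.96 ± 0.14. Laptm5, a lysosomal protein of blood cells, was 137, 167, 125, 117 and 166 against 84.6, 61.5, 89.8, 66.8 and 54.3, a log2 fold change of 0.99 ± 0.17. Neither gene's groups overlapped. Of the 25 genes on the pan-leukocyte list, 24 were tested besides Ptprc: 21 had a positive log2 fold change, 19 an unadjusted p under 0.05 and 13 groups that did not overlap. The median was 0.90, against -0.02 over all genes tested. The choice of tumors by CD45 bears on this direction, so it is given as a description. Lcp1, an actin-bundling protein, was on the list but did not separate the groups, at 156 to 202 in the rich and 98.1 to 243 in the poor tumors. In bulk tumor RNA, fewer leukocytes and less of these RNAs per leukocyte cannot be told apart.

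Many macrophage genes stood lower in the poor tumors, and a few, such as Csf1r, were at similar levels across the rich ones. Csf1r, the receptor that macrophages need to survive, was 135, 142, 145, 142 and 154 in the rich tumors. It was 95.5, 68.1, 90.8, 72.7 and 65.1 in the poor tumors. The rich tumors stood within a narrow band above all the poor ones, at a log2 fold change of 0.87 ± 0.13 (SE, adjusted p = 0.168 by edgeR), and it stayed between 0.81 and 0.95 when any 1 tumor was left out. Adgre1, which encodes the macrophage marker F4/80, was 44.3, 55.1, 43.2, 53.6 and 43.4 against 27.1, 22.9, 33.5, 20.1 and 18.8, a log2 fold change of 0.97 ± 0.18.

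Lyz2, the lysozyme of macrophages and granulocytes, was 1043, 1548, 847, 826 and 987 in the rich and 492, 262, 628, 386 and 582 in the poor tumors, a log2 fold change of 1.16 ± 0.27. C1qa, a chain of the complement starter C1q made by tissue macrophages, was 204, 460, 208, 192 and 381 against 168, 109, 123, 108 and 147, a log2 fold change of 1.14 ± 0.28. Neither gene's groups overlapped, though the highest poor tumor reached 168 for C1qa against a rich minimum of 192. Of 30 genes on the macrophage and monocyte list, 28 were tested: 27 had a positive log2 fold change, 21 an unadjusted p under 0.05 and 11 groups without overlap, at a median of 0.92. That is a larger share than the 7.62% of all genes at this p and the 1.34% without overlap, though the macrophage genes were not tested as a set. The choice of tumors by CD45 bears on this share too. At the same p the share was also high on the fibroblast list (19 of 24) and the skeletal muscle list (13 of 14). DESeq2 called 13 of the 28 higher, among 390 over all genes. Genes often used to describe macrophage states varied widely within the rich group. Mrc1, a mannose receptor of resident and repair-type macrophages, was 11.5, 57.9, 23.7, 46.9 and 145 in the rich tumors and 36.2, 12.6, 12.7, 5.98 and 9.28 in the poor tumors. Its log2 fold change of 1.89 ± 0.68 was 1.19 without Cbfb(het) 3. Arg1, the arginase of wound-type macrophages and of some epithelia, was 934, 48.8, 411, 154 and 384 against 207, 145, 118, 453 and 304, and showed no such separation (log2 fold change 0.66 ± 0.66).

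**Figure D2:**
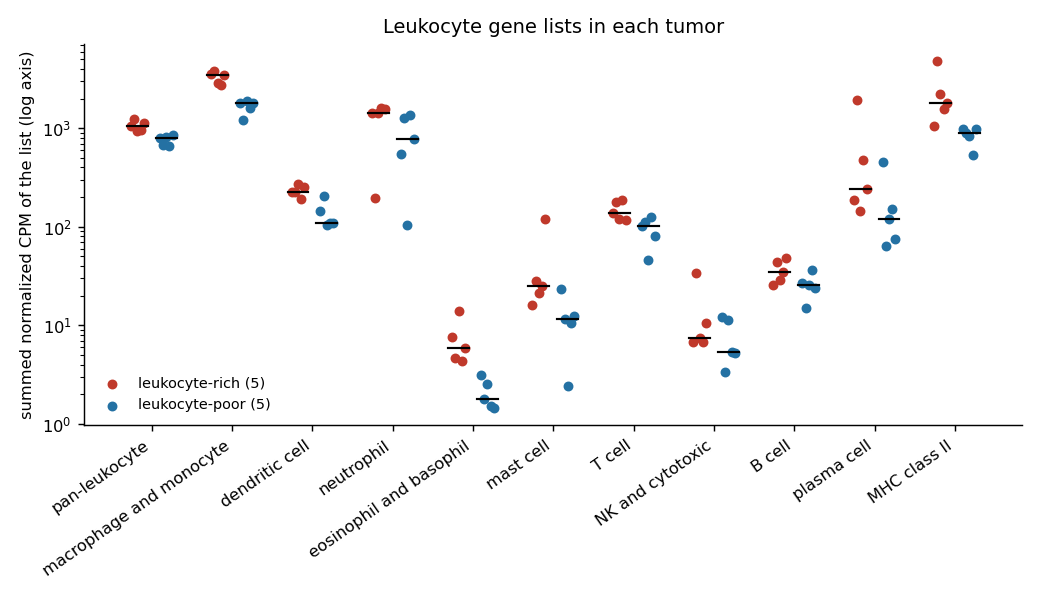
Summed normalized CPM (log axis) of 11 gene lists, with 1 point per tumor for the 5 rich and 5 poor tumors and a bar at each group's median. Only the pan-leukocyte, macrophage, eosinophil and basophil and MHC class II sums have no overlap between the groups; the others share part of their range.

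Summed over the list, macrophage RNA was 3581, 3836, 2856, 2716 and 3431 normalized CPM in the rich and 1795, 1222, 1910, 1615 and 1807 in the poor tumors. The medians differed 1.91-fold and the groups did not overlap, nor did they on plain CPM or on the deposited TPM. A sum is weighted towards its most abundant members, here Lyz2 and in some tumors Arg1. In the rich tumor Cbfb(het) 13, Lyz2 and Arg1 were 1043 and 934 of the sum of 3581. In the poor tumor Cbfb(het) 7 they were 386 and 453 of 1615. Divided by the pan-leukocyte sum of the same tumor without Ptprc, macrophage RNA was 2.82 to 3.38 in the rich and 1.80 to 2.42 in the poor tumors. This ratio needs no scaling between tumors. Of the 10 leukocyte lists set against the pan-leukocyte sum, 9 overlapped between the groups and the macrophage list did not. The T cell ratio, for example, was 0.104 to 0.193 in the rich and 0.0572 to 0.187 in the poor tumors. The T cell sum is weighted towards Tcf7 and Bcl11b. In the poor tumor Cbfb(het) 7 they were 60.0 and 42.9 of a sum of 125, with Cd3e at 0.147. Ikzf1, Lcp1 and Cytip, members of the denominator, had negative log2 fold changes. Lcp1 and Cytip were 185 and 204 of the pan-leukocyte sum of 847 in the poor tumor Cbfb(het) 8. In the rich tumor Cbfb(homo) 1 they were 159 and 13.5 of 929. The makeup of the denominator thus differed between tumors, so the ratio is not read as the share of macrophages among leukocytes. A ratio without these genes or without Arg1 was not computed. Among the middle tumors, the macrophage sum of Cbfb(het) 9, at 3259, lay within the rich range, while Cbfb(wt) 3 and Cbfb(het) 6, at 2508 and 1968, lay between the groups.

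Some of the genes with the smallest p were on no list, and they were picked after their values were seen. Ncf4, a subunit of the phagocyte oxidase, was 18.3 to 26.6 in the rich and 7.93 to 11.8 in the poor tumors. C3ar1, a receptor for complement C3a on myeloid cells, was 35.8 to 53.6 against 17.99 to 30.02. Vsir, an inhibitory ligand and receptor known as VISTA, was 83.7 to 104 against 42.4 to 64.1. All of these genes stood higher in every rich tumor than in any poor one.

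Dendritic cell genes stood higher as a list, some at low levels, such as Flt3, and others not, such as Itgax. Flt3, a growth factor receptor of dendritic cell precursors and dendritic cells, was 0.367, 1.74, 0.889, 1.63 and 0.846 in the rich and 0.299, 0.304, 0.367, 0.0736 and 0.173 in the poor tumors, with a log2 fold change of 2.16 ± 0.53. The lowest rich tumor met the highest poor one. Itgax, the integrin CD11c of dendritic cells and many tumor macrophages, was 124, 60.2, 105, 63.6 and 36.2 against 38.01, 37.9, 42.0, 41.3 and 35.96, so only Cbfb(het) 3 of the rich tumors fell within the poor range. Wdfy4, needed for cross-presentation, had no overlap, at 9.49 to 14.7 against 4.83 to 7.91. Of 18 list genes, 14 were tested, all 14 with a positive log2 fold change, 6 at an unadjusted p under 0.05. Their median was 0.98. Fscn1, an abundant member, did not separate the groups, at 49.3 to 111 in the rich and 23.9 to 138 in the poor tumors (log2 fold change 0.14 ± 0.43). Xcr1, a marker of cross-presenting dendritic cells, was under the filter and at 1.36 or less in every tumor.

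Neutrophil genes mostly had positive log2 fold changes, with overlap for each member. Of 17 genes, 13 were tested: 12 were positive and, against 7.62% of all genes, 2 stood higher at an unadjusted p under 0.05, at a median of 0.79. These were Ngp, a granule protein of immature neutrophils, at 0.550 to 11.3 in the rich and 0.173 to 1.02 in the poor tumors, and Mmp9, a matrix protease also made by other cells, at 29.5 to 317 against 8.30 to 56.3. S100a8, a subunit of the granulocyte protein calprotectin and also made by squamous epithelium, was 629, 53.0, 594, 514 and 648 in the rich tumors. In the poor tumors it was 222, 555, 49.3, 646 and 395. Cbfb(het) 5 among the rich and Cbfb(het) 4 among the poor tumors were the lowest, the others were 222 or above, and the log2 fold change was 0.39 ± 0.69. Csf3r, the receptor for the neutrophil growth factor G-CSF, was 11.7 to 44.9 in the rich and 8.25 to 20.5 in the poor tumors. The neutrophil sum was 194 in Cbfb(het) 5 and 1416 to 1618 in the other rich tumors, against 103 to 1373 in the poor ones. Without the 3 poor tumors rich in milk RNA, described further on, the log2 fold change of S100a8 was -0.30.

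Mast cell and eosinophil genes were at low levels. The eosinophil and basophil sum, over 10 genes of which 3 were tested, was 4.36 to 13.96 in the rich and 1.45 to 3.14 in the poor tumors, without overlap. It is weighted towards Ear2 and Siglecf, whose groups each overlapped. The untested members Epx and Prg2 had means of 0.0106 and 0.0718 in the rich and 0 and 0.0667 in the poor tumors. The sum is thus not read as a difference in eosinophils. The mast cell sum was 119 in Cbfb(het) 3 and 15.9 to 28.5 in the other rich tumors, against 2.40 to 23.3. Mcpt4, a mast cell protease, was 0.0687, 6.85, 3.41, 3.90 and 26.3 in the rich and 3.17, 0.101, 0.0282, 0.221 and 0.621 in the poor tumors. All rich tumors but 1 lay above the highest poor one, while Cbfb(het) 13, the tumor with the most Ptprc, was among the lowest. The log2 fold change of 3.29 ± 1.38 was 2.10 without Cbfb(het) 3. Siglecf, a receptor of eosinophils that other myeloid cells can express, was 5.96, 0.286, 1.35, 1.99 and 0.820 against 0.478, 0.101, 0.254, 0.294 and 0.759, a log2 fold change of 2.47 ± 0.80 and of 1.56 without Cbfb(het) 13.

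T cell genes stood higher in the rich tumors as a list, with overlap for each member. Cd3e, a chain of the T cell receptor complex, was 1.53, 5.15, 1.23, 1.87 and 0.978 in the rich tumors. It was 0.986, 0.936, 0.508, 0.147 and 0.207 in the poor tumors, with Cbfb(het) 3 just under Cbfb(het) 2. The log2 fold change of 1.94 ± 0.65 (adjusted p = 0.332 by edgeR) was 1.32 without Cbfb(het) 5. Cd8a, of killer T cells, was 2.25, 6.39, 0.889, 1.44 and 1.96 against 1.61, 0.531, 1.10, 0.490 and 0.690. Its log2 fold change of 1.54 ± 0.57 was 0.88 without Cbfb(het) 5. Cd4, of helper T cells and some macrophages, was 6.55, 8.23, 7.33, 7.93 and 1.19 against 3.26, 4.71, 4.74, 0.956 and 1.79, and 4 of the 5 rich tumors lay above all the poor ones. Of 26 T cell genes, 24 were tested: 23 had a positive log2 fold change, 14 an unadjusted p under 0.05 and 0 had groups without overlap, at a median of 1.44. Over all genes, 7.62% stood higher at this p. DESeq2 called 2 of the 24 higher, Il7r and Ubash3a.

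Foxp3, the factor of regulatory T cells, was 0.504, 1.79, 0.649, 3.19 and 0.582 in the rich and 0.598, 1.19, 0.0565, 0.0981 and 0.207 in the poor tumors. Among the rich tumors Foxp3 was highest in Cbfb(het) 11, not in Cbfb(het) 5 where Cd8a was highest. Pdcd1, the inhibitory receptor PD-1, was 0.793 to 2.60 against 0.221 to 1.97, and Cd274, its ligand PD-L1, was 6.53 to 14.3 against 4.07 to 13.01. Both overlapped broadly. Of the 16 genes on the regulatory T cell and checkpoint list, all tested, 15 had a positive log2 fold change, 5 at an unadjusted p under 0.05. Their median was 0.86.

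The sum of natural killer and cytotoxic genes was high in 1 tumor, though not each gene on the list was. The list's sum was 34.1 in Cbfb(het) 5, 6.71 to 10.6 in the other rich tumors and 3.37 to 12.2 in the poor tumors. Its median log2 fold change of 0.83 over 9 tested members of 17 was 0.06 without Cbfb(het) 5. Nkg7 and Ctsw were 9.76 and 8.11 of the sum in Cbfb(het) 5, and Klrk1 and Prf1 were also highest there, at 2.46 and 1.17. Gzmb, a killing enzyme of these cells, was 0.575 to 1.11 in the rich and 0.177 to 2.23 in the poor tumors. Gzmb and Gzma, another such enzyme, were 0.859 and 0.930 in Cbfb(het) 5. They were 2.23 and 1.84 in the poor tumor Cbfb(het) 4 and 5.97 and 3.50 in the middle tumor Cbfb(wt) 3. Ncr1, the defining receptor of natural killer cells, was under the filter and at 0.763 or less in every rich tumor.

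Antibody genes also peaked in Cbfb(het) 5. Jchain, which joins antibody units in plasma cells, was 9.62, 199, 10.7, 59.1 and 22.0 in the rich and 37.9, 1.06, 12.3, 6.79 and 3.56 in the poor tumors. Among the poor tumors Cbfb(het) 2 stood above 3 of the rich ones. The log2 fold change of 2.28 ± 1.07 was 1.04 without Cbfb(het) 5 and 3.34 without Cbfb(het) 2. Igha, the constant part of IgA, was 27.7, 643, 33.2, 164 and 69.7 against 91.5, 4.20, 41.8, 24.0 and 7.80. The plasma cell sum reached 1916 in Cbfb(het) 5 and 146 to 474 in the other rich tumors, and the list's median of 1.73 was 0.65 without that tumor. Of 17 genes on the B cell list, 9 were tested, 0 had an unadjusted p under 0.05 by edgeR and DESeq2 called 0, at a median of 0.54.

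**Figure D3:**
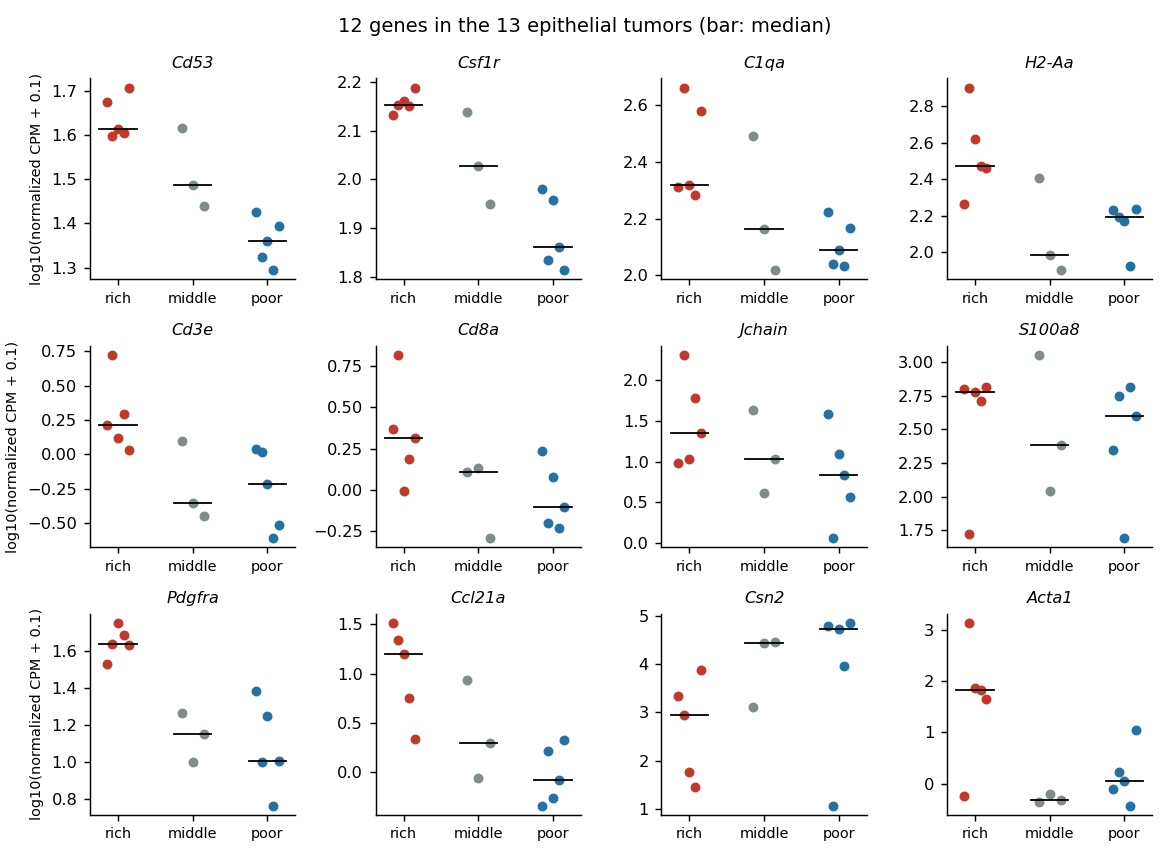
Normalized levels of 12 genes in the 13 epithelial tumors as log10(normalized CPM + 0.1), by rich, middle and poor group, 1 point per tumor and a bar at the median. Cd53, Csf1r, C1qa, H2-Aa, Pdgfra and Ccl21a have no overlap between the rich and poor tumors, whereas Cd8a, Jchain, S100a8, Csn2 and Acta1 do overlap.

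MHC class II genes, which let macrophages, dendritic cells and B cells show peptides to helper T cells, stood higher together. H2-Aa, a chain of the class II molecule, was 185, 800, 415, 298 and 288 in the rich and 171, 156, 148, 84.4 and 173 in the poor tumors. Cbfb(het) 13, with the most Ptprc, lay just above the poor tumors and Cbfb(het) 5 far above them. H2-Aa had a log2 fold change of 1.44 ± 0.37 (SE, adjusted p = 0.258 by edgeR), and 1.02 without Cbfb(het) 5. Cd74, the chain that escorts class II molecules, was 570, 2488, 1154, 801 and 937 against 515, 462, 446, 289 and 515. Ciita, the coactivator of these genes, was 9.74, 21.2, 16.2, 12.3 and 10.9 against 6.30, 6.15, 8.41, 6.23 and 6.73, a log2 fold change of 1.05 ± 0.24. All 10 listed genes were tested and all 10 had a positive log2 fold change, from 1.00 to 1.68. Of these, 9 had an unadjusted p under 0.05 and 3 had no overlap. DESeq2 called 7 of the 10 higher, among 390 over all genes.

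Because these genes stood higher together, their promoters are shown. Class II promoters are known for a shared Y box, the letters TGATTGG, bound by the factor NF-Y. The RefSeq table (GRCm38.p6) held 7 of the 10 list genes. Of their windows of 250 bases before the first listed start, 6 contained TGATTGG on either strand and that of H2-DMa did not, against 7.65% of 27025 genes' windows. A match is a description of letters and not a test of binding. The start is the first one listed in RefSeq; in the GENCODE annotation, all 30 bases printed for H2-DMb1 and 13 of those for H2-Oa lie in an exon of the same gene, so part of these stretches is annotated as transcribed. The first line gives the whole window of H2-Aa (chr17:34287824-34288073, minus strand). The other lines give the 30 bases around the match for H2-Eb1 (chr17:34305795-34305824), H2-DMb1 (chr17:34153117-34153146), H2-DMb2 (chr17:34145146-34145175), H2-Oa (chr17:34092323-34092352) and H2-Ob (chr17:34238835-34238864), all on the plus strand, with the match in capitals.
H2-Aa: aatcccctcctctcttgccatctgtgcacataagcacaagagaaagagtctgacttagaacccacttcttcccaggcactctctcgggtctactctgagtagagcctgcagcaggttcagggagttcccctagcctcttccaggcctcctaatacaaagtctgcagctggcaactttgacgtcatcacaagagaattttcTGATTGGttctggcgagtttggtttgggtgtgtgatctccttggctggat
H2-Eb1: tcctttgatgcTGATTGGctcccagcactg
H2-DMb1: gattcactcagTGATTGGtctgacctgcct
H2-DMb2: aagtcacttagTGATTGGactgacttaact
H2-Oa: gagaactgctcTGATTGGctgcttaccgca
H2-Ob: gtcttcgctctTGATTGGttaacagtgtga
In H2-Aa the match began 50 bases before the start, and in the others 45 to 92 bases before it.

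MHC class I and interferon genes separated the groups less. H2-K1, a class I heavy chain, was 730, 2403, 1214, 1024 and 1300 in the rich and 785, 1386, 993, 634 and 819 in the poor tumors, with a log2 fold change of 0.53 ± 0.33. B2m, the class I light chain, was 811, 2017, 1682, 1111 and 1313 against 744, 1789, 1396, 513 and 633. Both ranges were shared, with the poor tumor Cbfb(wt) 1 above 4 of the rich tumors for both genes. The median of the 14 class I genes was 0.53, and 0.22 without Cbfb(het) 5. Cxcl9, a chemokine induced by interferon gamma that draws activated T cells, was 3.02, 73.5, 2.86, 6.78 and 9.60 against 2.93, 4.96, 2.46, 1.67 and 0.932. The log2 fold change of 2.88 ± 0.95 was 1.10 without Cbfb(het) 5, and the median of the 17 tested interferon gamma response genes went from 1.03 to 0.27 in the same step. Isg15, a type I interferon target, was 14.4 to 73.3 in the rich and 17.9 to 58.7 in the poor tumors. The type I interferon list had a median of 0.04, with 16 of 27 genes positive and 0 at an unadjusted p under 0.05 by edgeR, and DESeq2 called 0.

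Some of the genes that place and admit leukocytes stood higher in the rich tumors. Ccl21a, a chemokine of lymphatic vessels and lymph node stroma that draws T cells and dendritic cells, was 32.5, 21.8, 15.8, 5.61 and 2.06 in the rich tumors. It was 0.359, 1.54, 0.452, 0.736 and 2.04 in the poor tumors, so Cbfb(het) 3 and Cbfb(het) 8 all but met. The log2 fold change was 3.92 ± 0.79 (SE, adjusted p = 0.192 by edgeR) and 3.46 to 4.33 when any 1 tumor was left out. Near-identical copies of Ccl21 genes exist, and the counting may have shared reads between them. Of 12 matched genes on the lymph node list, which includes Ccl21a, 7 were tested: 6 had a positive log2 fold change and 4 an unadjusted p under 0.05, at a median of 1.45. The list's sum was 17.1 to 44.5 in the rich and 4.09 to 8.96 in the poor tumors. Ltb, a lymphotoxin chain of lymphocytes, was 2.43 to 10.2 against 0.834 to 2.48, while the untested members Cr2, Chst4 and Madcam1 reached 0.525, 0.0529 and 0.119 at most. Whether lymph node tissue was taken with any tumor was not tested. Ccl5, made by T cells, was 11.3 in Cbfb(het) 5 and 1.58 to 2.35 in the other rich tumors, against 0.656 to 1.86. Selp, the selectin with which venules catch leukocytes, was 1.51, 9.73, 11.8, 6.83 and 22.8 against 3.20, 1.39, 3.53, 2.60 and 2.21, and 4 of the 5 rich tumors lay above all the poor ones (log2 fold change 2.03 ± 0.58). Csf1, the ligand of Csf1r, was 60.3 to 125 against 52.9 to 79.6, with a log2 fold change of 0.35 ± 0.21. Il6, an inflammatory cytokine, was 0.527, 0.549, 1.92, 0.719 and 1.11 against 0.388, 0.354, 0.113, 0.172 and 0.104, without overlap.

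Fibroblast genes stood higher in the rich group as a list, but their sums overlapped and did not follow the Ptprc order. The sum was 2682 in Cbfb(het) 13, the tumor with the most Ptprc, and 8454 to 14545 in the other rich tumors. In the poor tumors it was 1124 to 6078. Pdgfra, the growth factor receptor of mammary fibroblasts, was 33.6, 43.1, 56.0, 48.4 and 42.7 in the rich and 24.1, 9.84, 17.6, 5.69 and 9.94 in the poor tumors. The groups did not overlap, at a log2 fold change of 1.74 ± 0.35 (SE, adjusted p = 0.192 by edgeR). Col1a1, the main fibrillar collagen chain, was 317, 1484, 2543, 1616 and 927 against 1048, 370, 221, 107 and 295. Here Cbfb(het) 13 stood with the poor tumors and Cbfb(het) 2 with the rich ones, and the log2 fold change was 1.75 ± 0.65. Of 25 fibroblast genes, 24 were tested, all 24 with a positive log2 fold change, 19 at an unadjusted p under 0.05 and only Pdgfra without overlap. Their median was 1.62, and DESeq2 called 4 higher, among 390 over all genes.

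Genes linked to epithelial-mesenchymal transition are also fibroblast and macrophage genes. Zeb2, a repressor found in macrophages and mesenchyme, was 26.4, 28.6, 32.6, 27.2 and 35.5 in the rich and 16.01, 10.4, 17.0, 10.6 and 8.66 in the poor tumors, a log2 fold change of 1.26 ± 0.21 without overlap. Fn1, the matrix protein fibronectin, was 3568 in Cbfb(homo) 1, 339 to 764 in the other rich tumors and 89.7 to 454 in the poor ones. Its log2 fold change of 2.59 ± 0.72 was 1.57 without Cbfb(homo) 1. Each of the 10 genes on the list was above 0 on the log2 scale, at a median of 1.19, while the Epcam ranges overlapped.

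Blood vessel genes overlapped between the groups. Pecam1, of endothelial cells, was 25.9, 42.9, 103, 46.5 and 61.9 in the rich and 49.7, 39.4, 39.1, 19.8 and 35.4 in the poor tumors. The 20 endothelial genes had a median of 0.68, all 20 positive and 4 at an unadjusted p under 0.05, against 7.62% of all genes. The median was 0.27 without Cbfb(homo) 1. Rgs5, of pericytes, was 25.3 to 135 against 19.6 to 66.5. Lyve1, of lymphatic vessels and some macrophages, was 0.641, 7.01, 4.47, 5.73 and 57.2 against 6.04, 2.96, 1.61, 1.40 and 0.966. Its log2 fold change of 2.53 ± 1.03 was 0.78 without Cbfb(het) 3.

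Skeletal muscle and red cell genes were high in some of the rich tumors, and fat cell genes in tumors of both groups. Acta1, the actin of skeletal muscle, was 0.481, 1366, 75.0, 67.0 and 45.7 in the rich and 0.687, 1.59, 1.04, 0.270 and 11.3 in the poor tumors. All other rich tumors lay above the poor ones, while Cbfb(het) 13 lay with the poor. The muscle list's sum was 12.05, 5456, 217, 568 and 188 against 9.74 to 44.5, and 13 of 14 tested members had an unadjusted p under 0.05. Cbfb(het) 5 had the highest sums of muscle, natural killer and plasma cell genes among the rich tumors, and the highest Cd3e and Cd8a. The summed T cell list was higher in Cbfb(het) 11 (187) than in Cbfb(het) 5 (178). Bcl11b alone made up 83.2 of this sum in Cbfb(het) 11 and 34.99 in Cbfb(het) 5. The order of the sums is thus not read as an order in T cells. Cbfb(het) 13 had muscle RNA at the level of the poor tumors and a macrophage sum of 3581. Hbb-bs, an adult globin chain, was 46.5, 925, 114, 303 and 1184 against 143, 48.8, 150, 51.7 and 219. Adipoq, the fat cell hormone adiponectin, was 0.137, 9.23, 0.0480, 39.0 and 10.3 against 7.23, 0, 0.0565, 2.94 and 0.483. The adipocyte sum was 205 to 1420 in the rich and 117 to 1738 in the poor tumors; of 19 tested members 13 were positive, 0 had an unadjusted p under 0.05 in the higher and 2 in the lower direction, and DESeq2 called 0. Cd36, a fatty acid transporter also found in mammary epithelium, was 20.2 to 81.5 against 11.3 to 480. The part of muscle, fat or blood in the sampled tissue in the lymphoid and fibroblast values was not tested.

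**Figure D4:**
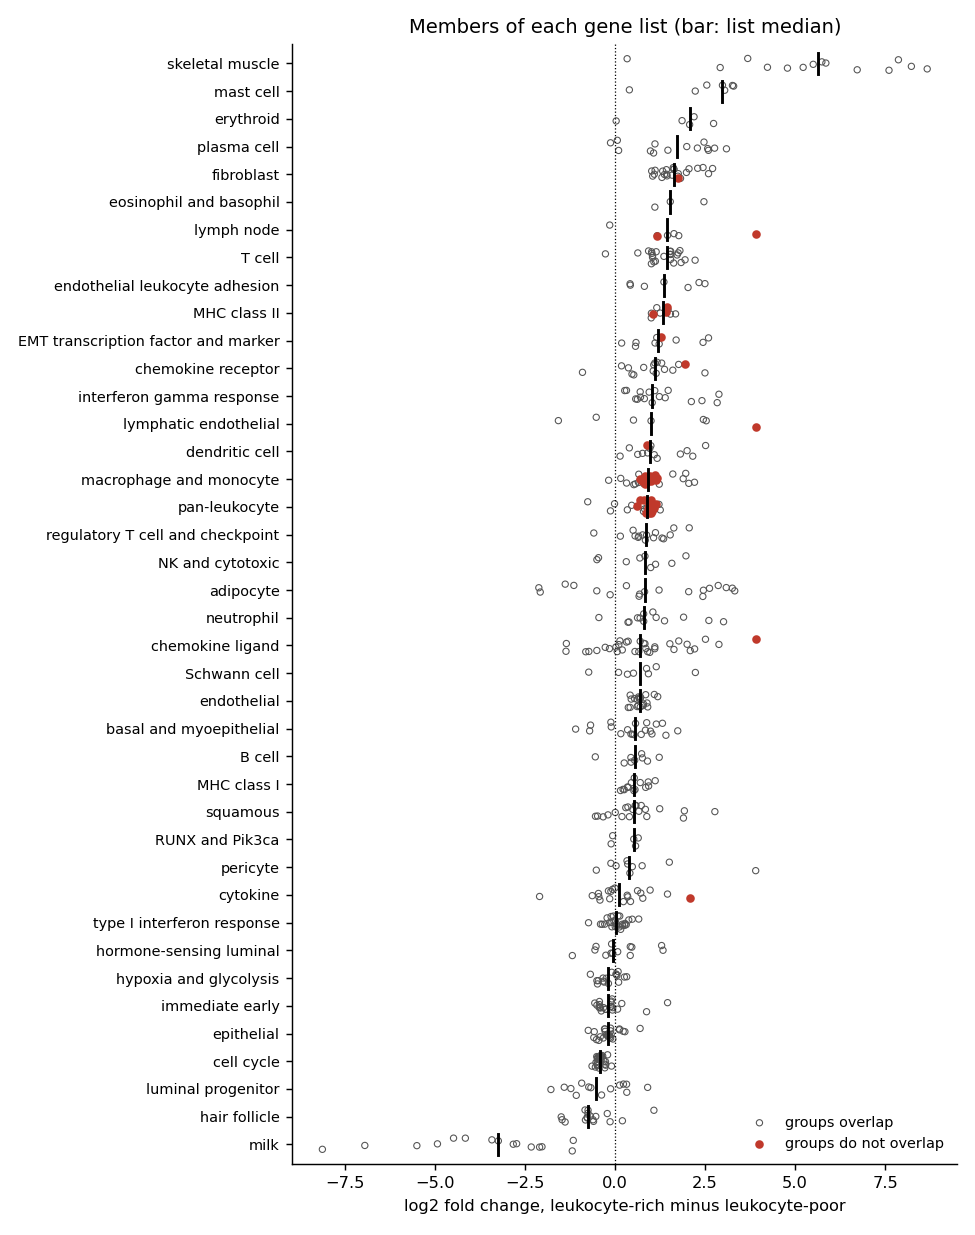
Log2 fold change of each tested member of 40 gene lists, rich minus poor, with a black bar at the list's median and filled points for genes whose groups do not overlap. Filled points gather in the macrophage (11) and pan-leukocyte (13) lists, milk genes lie lowest (median -3.24), and muscle genes highest (median 5.62) without a gene free of overlap.

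Pan-epithelial genes did not separate the groups. Krt8, a keratin of luminal cells, was 642, 941, 1371, 483 and 1854 in the rich and 679, 968, 1436, 749 and 1037 in the poor tumors. Cdh1, which encodes E-cadherin, was 490 to 691 against 421 to 693. Of 26 tested epithelial genes besides Epcam, 21 had a negative log2 fold change, at a median of -0.20. In the lower direction 2 had an unadjusted p under 0.05, against 3.36% of all genes. The direction followed the scaling: 13 of the 26 were negative without normalization factors and 7 on log2(TPM + 1).

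Milk genes stood lower in the rich tumors, with 3 of the 5 poor tumors far above the rest. Csn2, the gene of beta-casein, was 2207, 885, 57.7, 29.1 and 7656 in the rich and 61303, 11.7, 53652, 9118 and 69721 in the poor tumors. Cbfb(wt) 1, a poor tumor, had the lowest value of the 10. Its log2 fold change was -4.16 ± 1.81 (SE, adjusted p = 0.435 by edgeR) and -1.07 without Cbfb(het) 2, Cbfb(het) 4 and Cbfb(het) 8. Wap, another milk protein, was 9.78, 12.1, 4.90, 1.01 and 109 against 4039, 0.557, 3648, 142 and 9088, and its log2 fold change of -6.95 ± 2.07 became -1.38 in the same step. The 15 milk genes all had a negative log2 fold change, 12 at an unadjusted p under 0.05, with groups that overlapped for each. Their median of -3.24 became -0.42 without these 3 tumors, with 3 genes then positive. DESeq2 called 9 of the 15 lower, among 79 over all genes.

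Milk genes took 15.2%, 14.6% and 16.8% of the counts of these 3 tumors and at most 2.69% in the other 7. Without the 3 tumors the macrophage median was 1.33 in place of 0.92, with 27 of 28 genes positive, and the class II median 1.63 in place of 1.33. This setting was added after the data were seen and leaves 2 poor tumors, Cbfb(wt) 1 and Cbfb(het) 7. Cbfb(wt) 1 had the lowest macrophage sum of the 13 tumors, 1222, with a milk sum of 6110, and the rich tumor Cbfb(het) 11 had 2716 with a milk sum of 5919. Cbfb(het) 2, Cbfb(het) 4 and Cbfb(het) 8, the 3 tumors rich in milk RNA, had macrophage sums of 1795, 1910 and 1807. Of the middle tumors, Cbfb(het) 6 and Cbfb(wt) 3 had 1968 and 2508 with milk sums of 88105 and 63366. Cbfb(het) 9 had 3259 with a milk sum of 13558. Whether milk RNA bears on the macrophage difference was not tested.

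**Figure D5:**
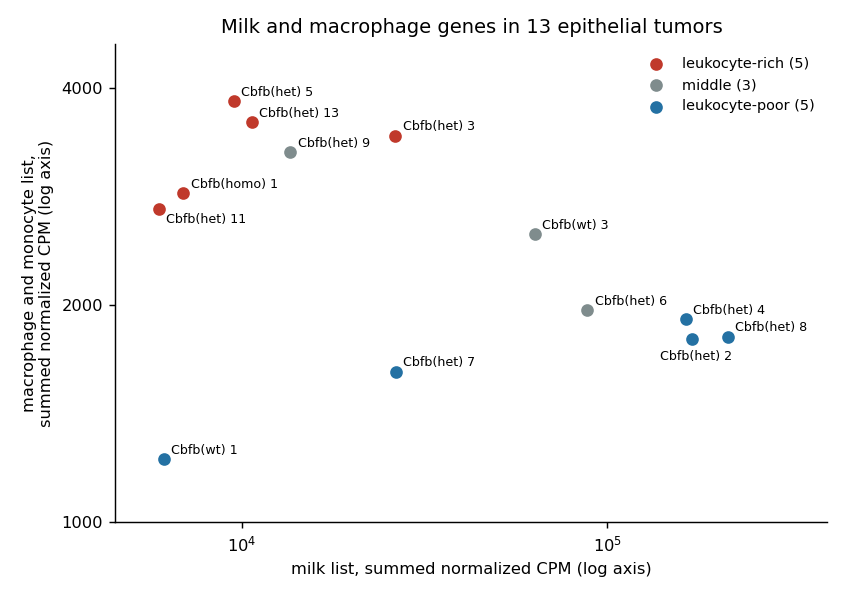
Summed milk genes (x axis) and summed macrophage genes (y axis) in the 13 epithelial tumors, in normalized CPM on log axes. The rich tumors lie at 2716 or more on the macrophage axis and the poor tumors at 1910 or less, at milk sums that run from 6110 to 213077 in the poor tumors.

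Casein promoters are known for sites of STAT5, the factor that prolactin activates, with the letters TTCNNNGAA. Of 15 milk genes the RefSeq table (GRCm38.p6) held 9. Of their windows, 3 contained these letters, against 7.18% of 27025 genes' windows; the pattern reads the same on both strands. The whole 250 bases before the start are given for Csn1s1 (chr5:87665958-87666207, plus strand) and the 30 bases around the match for Csn2 (chr5:87699499-87699528) and Glycam1 (chr15:103565207-103565236), both on the minus strand, with the match in capitals. All 30 bases printed for Csn2 lie in an annotated exon of Csn2.
Csn1s1: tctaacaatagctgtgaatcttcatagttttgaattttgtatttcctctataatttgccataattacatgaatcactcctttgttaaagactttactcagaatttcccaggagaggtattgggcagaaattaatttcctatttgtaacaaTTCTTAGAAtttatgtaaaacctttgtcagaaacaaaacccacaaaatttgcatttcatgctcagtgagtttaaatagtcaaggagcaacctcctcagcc
Csn2: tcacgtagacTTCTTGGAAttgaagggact
Glycam1: gccaactcatTTCCCAGAAacaccaattcc
Csn1s1, the gene of alpha-S1-casein, was 2940, 1699, 204, 399 and 6201 in the rich and 20737, 887, 26394, 6712 and 26662 in the poor tumors.

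Luminal progenitor genes were mixed: of 14, all tested, 9 had a negative and 5 a positive log2 fold change, 5 an unadjusted p under 0.05 in the lower and 1 in the higher direction, at a median of -0.53. That 1 was Aldh1a3, a retinal dehydrogenase, at 288, 114, 207, 198 and 242 in the rich and 100.3, 183, 75.8, 115 and 88.3 in the poor tumors. Elf5, the factor of alveolar cells, was 219, 234, 68.8, 144 and 369 in the rich and 688, 138, 596, 424 and 911 in the poor tumors. Its log2 fold change of -1.41 ± 0.52 was -0.44 without the 3 tumors rich in milk RNA. Lcn2, an iron-binding protein of luminal cells and neutrophils, was 2154 to 3684 against 3166 to 9742. Spp1, on the milk and cytokine lists, encodes osteopontin, a secreted protein of milk, macrophages and tumor cells, and was 3320, 4295, 5218, 4414 and 3244 against 22100, 3948, 36907, 3708 and 21130. The 3 tumors rich in milk RNA were alone above 5218, and without them the log2 fold change of Spp1 went from -2.10 to 0.10. Esr1, the estrogen receptor of hormone-sensing luminal cells, was 6.14 to 28.1 against 6.45 to 39.2, and the median of that list was -0.07.

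Basal keratins were highest in the Cbfb(homo) tumor. Krt5 was 1263, 1627, 7122, 3785 and 1158 in the rich and 1142, 1992, 731, 1117 and 1031 in the poor tumors, with a log2 fold change of 1.31 ± 0.53, and 0.71 without Cbfb(homo) 1. Krt14, its partner, was 2840 to 10537 against 443 to 4923. Acta2, the smooth muscle actin of myoepithelium, pericytes and activated fibroblasts, was 86.3 to 966 against 65.9 to 694. Hair follicle and squamous genes varied within both groups: Krt71, a hair root sheath keratin, was 1.604, 32.4, 1.83, 1.75 and 187 against 52.0, 0.607, 1.64, 92.8 and 47.8. Krt10, a keratin of cornifying epithelium, was 2245 in Cbfb(het) 11 and 15.7 to 700 elsewhere in the 10 tumors. Neither list had a gene at an unadjusted p under 0.05 by edgeR (0 and 0), and DESeq2 called 0 in each.

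Cell cycle genes stood slightly lower in the rich tumors. Mki67, a marker of dividing cells, was 154, 88.2, 67.2, 97.9 and 132 in the rich and 154, 148, 113, 153 and 102 in the poor tumors, a log2 fold change of -0.31 ± 0.23. Ccnb1, the cyclin of mitosis, was 39.3, 28.8, 23.1, 37.9 and 59.1 against 56.0, 57.3, 54.1, 73.7 and 52.7. Only Cbfb(het) 3 of the rich tumors reached the poor range for Ccnb1 (log2 fold change -0.64 ± 0.23). All 32 genes of the list had a negative log2 fold change, between -0.64 and -0.10 (31 without normalization factors and 26 on log2(TPM + 1)). Of these, 3 had an unadjusted p under 0.05, against 3.36% of all genes in the lower direction. The median of -0.42 held its sign in all 26 alternative settings, but these share most of their tumors, so the held sign is no independent support. The list's sums overlapped, at 783 to 1875 in the rich and 1563 to 2120 in the poor tumors, with Cbfb(het) 3 the highest of the rich ones.

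Fos, an immediate early gene, was 38.2 to 81.6 in the rich and 56.4 to 130 in the poor tumors, and Slc2a1, the glucose transporter raised by low oxygen, was 121 to 783 against 252 to 596. Neither separated the groups. Gpt2, a mitochondrial alanine aminotransferase picked after its values were seen, had the smallest p among genes that stood lower. It was 34.5, 30.5, 40.7, 44.7 and 45.2 in the rich and 72.6, 66.4, 73.2, 51.9 and 72.6 in the poor tumors, without overlap, at a log2 fold change of -0.78 ± 0.15 (adjusted p = 0.192 by edgeR).

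Runx1, a transcription factor of blood cells and mammary epithelium that pairs with the Cbfb protein, was 265, 141, 252, 192 and 153 in the rich and 138, 142, 106, 192 and 122 in the poor tumors, a log2 fold change of 0.52 ± 0.22. Runx3, found in T cells and myeloid cells, was 15.2 to 61.3 against 7.17 to 28.9. Cbfb was 18.6 in Cbfb(homo) 1, 47.1 to 59.4 in the other rich tumors and 43.2 to 59.1 in the poor tumors. Pik3ca was 92.7 to 146 against 103 to 172. The ranges of each of these genes overlapped. Among the Cbfb(het) tumors alone, 4 against 4, the list medians were 0.91 for macrophage, 0.87 for pan-leukocyte, 1.42 for MHC class II and 1.22 for fibroblast genes.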

How the data were processed

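Bulk RNA of 18 tumors was sequenced from stranded mRNA libraries, per the labels' protocols. The authors deposited a table per tumor with 55450 genes, in expected counts and TPM, made with STAR 2.7.0f and RSEM 1.3.1 on mm10, per the submitters' processing notes. Annotation release and strand setting were not stated in the sources used here, so overlapping genes may share reads. The deposited FPKM were not used.

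Expected counts were rounded to whole numbers (6.20% to 7.19% were not whole), leaving totals of 33210207 to 40974130. CPM for choosing tumors were expected counts over the column total, times 1000000. Rich and poor tumors, 5 and 5, were compared with edgeR 4.0.16 (R 4.3.3): filterByExpr, TMM factors and the quasi-likelihood test without covariates, Benjamini-Hochberg over all tested genes, threshold 0.05. The SE is the log2 fold change divided by the square root of F. The fit was also run on simulated counts, with genes drawn independently and groups fixed in advance. Its outcome is not given here. The tumors were grouped by a measured gene, so no support is drawn from that run. Alternatives used DESeq2 1.42.0, limma 3.58.1 on log2(TPM + 1) and log2(TPM + 0.1), other factors, filters and tumor sets. Each tumor came from its own mouse. Values far below 1 normalized CPM rest on a few counts, where counting error is large.

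The tumors, the 40 gene lists and the tests were chosen with earlier results of these data known, and some lists share genes. Named genes were a set of lineage and tissue markers plus, of each list, the 2 most abundant and the 2 with the smallest p; others were picked after their values were seen. Figures were drawn with matplotlib 3.10.9.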

Additional observations from a re-analysis of the deposited data

Results flagged for a closer look

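Within each group of 5 tumors, a highest or lowest value was singled out where its gap to the next tumor was more than 0.71 of the group's range. Of 208 groups examined, 40 had such a tumor. The values are summed or single-gene normalized CPM. A rate of about 1 in 20 would hold for independent, normally distributed values. These CPM were not log-transformed, and some sums contain the single genes, so the 40 are not set against that rate.

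Among the rich tumors, Cbfb(het) 5 had the highest sums for natural killer and cytotoxic genes (34.1), plasma cell genes (1916), interferon gamma response genes (1505) and skeletal muscle genes (5456), and the lowest neutrophil sum (194). It had the highest Cd3e (5.15), Cd8a (6.39), Jchain (199), Igkc (679), Cxcl9 (73.5), Ccl5 (11.3) and Acta1 (1366), and the lowest S100a8 (53.0). The Cd3e, Cd8a, antibody and muscle values that stand apart were in the same tumor.

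Cbfb(het) 3 had the highest mast cell (119), milk (26263) and hair follicle (2999) sums of the rich tumors. It also had the highest Cpa3 (15.9), Csn2 (7656), Wap (109), Krt71 (187) and Lyve1 (57.2), and the lowest Cd4 (1.19). Cbfb(homo) 1 had the highest endothelial sum (886) and the highest sum of epithelial-mesenchymal transition genes (4537). Cbfb(het) 11 had the highest Adipoq (39.0).

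Among the poor tumors, Cbfb(het) 2 had the highest plasma cell sum (455), Igkc (162), Mrc1 (36.2), Cpa3 (2.36), Cxcl13 (2.03) and Col1a1 (1048). Cbfb(het) 4 had the lowest Csf3r (8.25) and the highest Esr1 (39.2) and Acta2 (694). Cbfb(het) 7 had the highest cell cycle sum (2120) and the lowest H2-Aa (84.4), Cbfb(het) 8 the highest muscle sum (44.5) and Acta1 (11.3), and Cbfb(wt) 1 the highest Fos (129.9) and Slc2a1 (596).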

How the results depend on the processing

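The counts of calls depended on the tool and the scaling. Genes called higher numbered 0 in the edgeR fit, 390 with DESeq2, 29 without normalization factors, 77 with limma on log2(TPM + 1) and 70 on log2(TPM + 0.1). Genes called lower numbered 0 in the edgeR fit and 79 with DESeq2. When 1 tumor was left out at a time, 0 genes were called higher, and 0 to 1 lower, the 1 without Cbfb(het) replicate 5. Genes without overlap numbered 223 higher and 92 lower, 438 and 7 without normalization factors, and 555 and 4 on the deposited TPM, both added after the data were seen. The cause of these differences was not tested. Of 26 alternative settings, 21 called no gene, with the smallest adjusted p at 0.168 in the edgeR fit.

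Over 179 named genes and 4647 pairs of gene and setting, 65 pairs passed the threshold in the same direction and 0 in the opposite one. With 21 of 26 settings calling no gene, the 0 says little about stability. In 82 pairs that did not pass, the log2 fold change moved by at least the gene's spread within groups. Of 40 list medians, 32 held their sign in all settings run for them. The settings share most of their tumors, so a held sign is no independent support. No paired analysis was possible because the labels give every tumor the same repeat number; the numbers used in the tumor names follow accession order and pair nothing. Ranking by Ptprc TPM puts Cbfb(wt) 3 among the rich tumors in place of Cbfb(het) 3, and called 0 genes. The labels name no batch, litter or age, so these could not be examined. With Cbfb(het) tumors only, 0 genes were called.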
